A study of Mus musculus with 2 samples.

Results

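Among the Tomato-positive cells of 2 single-cell libraries from mouse embryos, 160 of 4403 cells kept after filtering held at least 1 unique molecular identifier (UMI, 1 counted mRNA molecule) of *Itga4* and at least 1 of *Sox10*, and none of *Sox8*, *Prss56* or *Egr2*. The UMIs of these 5 genes chose the cells, so their levels in them are a description and not a result. There were 63 such cells at E11.5 and 97 in the E12.5 library. Both libraries carried the genotype labelled Egr2,R26mT, in which Cre made from the *Egr2* (*Krox20*) locus switches on Tomato from the *Rosa26* locus, and no library without Cre was part of this comparison. Tomato-positive cells were sorted from meninges dissected with dorsal root ganglia and nerve roots, and the labels call the sorted cells boundary cap cells. Because the recombined reporter is inherited, Tomato marks cells by descent and does not require that a cell makes *Egr2* when it is collected. Each stage was 1 library of cells pooled from 1 litter, so that a difference between the stages cannot be told apart from a difference between the libraries and no p value could be computed.

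Integrin alpha 4, the product of *Itga4*, pairs mainly with the beta 1 subunit to form VLA-4, a receptor for fibronectin and VCAM1 that is used by migrating neural crest cells and by leukocytes. SOX10 is the transcription factor that marks neural crest cells and keeps peripheral glia, such as Schwann cell precursors and satellite glia, in their identity, and SOX8 is a closely related member of its family. Boundary cap cells sit where nerve roots enter and leave the spinal cord, are marked by *Egr2* and *Prss56*, and give rise to Schwann cells, satellite glia and some sensory neurons. The study used *Itga4* and *Sox8* as markers of what it calls the hub state of Schwann cell precursors. The cells described here hold *Itga4* without a UMI of *Sox8*. *Itga4* lies on chr2:79085660-79163467, plus strand, and *Sox10* on chr15:79039108-79049469, minus strand (GRCm39). Both values are of the whole gene, and the reads come from the 3′ ends of its transcripts.

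The E11.5 library held 1431 barcodes with 10287595 UMIs, of which 840 cells with 9678632 UMIs passed the filters, at a median of 11607 UMIs per cell. At E12.5, 3762 barcodes with 23460243 UMIs were deposited, and 3563 cells with 23312540 UMIs were kept at a median of 6183. The libraries shared 9 barcodes, 7 of them after filtering, and none of the cells described here was among them. *Sox10* was found in 522 cells at E11.5 and 1548 in the E12.5 library, and *Itga4*-positive cells without *Sox8*, *Prss56* and *Egr2* made up 12.1% of them (95% interval 9.40 to 15.2%) at E11.5 and 6.27% (5.11 to 7.59%) at E12.5. All shares carry exact Clopper-Pearson intervals and all levels exact Poisson intervals, and both cover counting error only.

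The share was also read by depth. Of 174 *Sox10*-positive cells in each of 3 equal depth classes at E11.5, 16.1% (10.97 to 22.4%) of the shallowest, 8.05% (4.47 to 13.1%) of the middle and 12.1% (7.63 to 17.9%) of the deepest belonged to the group. Among 516 cells in each class at E12.5 the shares were 4.46% (2.85 to 6.61%), 5.62% (3.80 to 7.97%) and 8.72% (6.43 to 11.495%). All of these intervals overlapped within a stage, and the order of the classes differed between the stages. The share of *Sox10*-positive cells with any *Itga4* UMI, whatever their *Sox8*, *Prss56* and *Egr2*, was 20.1%, 20.1% and 31.0% over the same classes at E11.5 and 8.91%, 11.05% and 17.8% at E12.5. It was highest in the deepest class at both stages, and its interval there lay above that of the shallowest class only in the E12.5 library.

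*Itga4* was sparse in the cells that were chosen for it. The 63 cells at E11.5 held 101 UMIs of *Itga4*, a level of 134 CPM (UMIs of a gene scaled to 1000000 UMIs of the same cells; 95% interval 109 to 162). The 97 cells at E12.5 held 121 UMIs, 163 CPM (135 to 194). Exactly 1 UMI was found in 44 of 63 and 79 of 97 cells, so most of the group lay at the edge of the rule, and the highest single cells held 7 and 4 UMIs. *Sox10* stood at 323 CPM at E11.5 and 324 CPM at E12.5, with exactly 1 UMI in 13 and 34 cells. Just outside the rule lay 29 cells at E11.5 and 39 in the E12.5 library that held *Itga4* and *Sox10* and were left out by a single UMI of *Sox8*, *Prss56* or *Egr2*, with median totals of 14978 and 7021 UMIs against 11480 and 7215 in the chosen cells. In all, 61 *Itga4*- and *Sox10*-positive cells were left out at E11.5 and 98 at E12.5.

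*Itga4* UMIs were also found in cells without *Sox10*. At E11.5 14.5% of the 318 *Sox10*-negative cells held one (median 9903 UMIs) against 23.8% of the *Sox10*-positive cells, and at E12.5 the share was 6.70% of 2015 (median 6039 UMIs) against 12.6%. Unsupervised clusters of each library, built without the 5 genes of the rule, showed where *Itga4* lay. Most *Itga4*-rich among clusters with no *Sox10*-positive cell at E11.5 was a cluster led by *Igfbp7*, *Vtn* and *Rgs5*, at 87.0 CPM with 52.7% of cells positive. At E12.5 a cluster led by *Acta2* and *Tagln* reached 117 CPM and 53.5%, with *Sox10* in 3 of its 43 cells. A neuronal cluster led by *Stmn2* and *Nefl* at E11.5 still held *Itga4* in 11.7% of its cells at 10.2 CPM, and a cluster of 452 cells at E12.5, with *Slc17a6* and *Stmn2* among its leading genes, held it in 3.98% at 5.14 CPM. Low shares of cells with an *Itga4* UMI were thus found in clusters of neurons as well, and whether free RNA gave part of these UMIs was not tested.

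Clustering gave 11 clusters at E11.5 and 15 in the E12.5 library, and the cells of the group fell in 8 and 10 of them. At E11.5, 31 of the 63 cells (49.2%, 36.4 to 62.1%) were in cluster 7, which held 147 cells, 95.2% of them *Sox10*-positive, and had *Egfl8*, *Gfra3*, *Sfrp1*, *Pls3*, *Sorcs1*, *Col25a1* and *Sntb1* among its leading genes. Of all 398 *Sox10*-positive *Itga4*-negative cells, 19.1% (15.4 to 23.3%) were in that cluster. At E12.5, 29 cells (29.9%) lay in cluster 3, led by *Slc36a2*, *Egfl8* and *Sntb1* and with *Sorcs1* further down its leading genes, and 26 (26.8%) in cluster 12, led by *Zpld1*, *Hmga2* and *Cytl1*. Together these held 56.7% (46.3 to 66.7%) of the group against 39.2% (36.6 to 41.9%) of the 1353 *Itga4*-negative cells. The clusters were singled out after their counts were seen and are left by number. The label of glia did not hold for every cell of the group. In clusters where under 50% of cells held *Sox10* lay 2 of its cells at E11.5 and 9 in the E12.5 library, 1 of the latter in a cluster led by *C1qb* and *Pf4*. Another 6 at E11.5 lay in cluster 5, where 61.1% of cells held *Sox10* and *Dll1*, *Insm1* and *Hes6*, genes of neurogenesis, were among the leading genes. At least 4 listed neuronal genes were found in 47.6% of the group at E11.5 and 26.8% at E12.5. Among all *Sox10*-positive cells the shares were 50.2% and 32.0%, so the group did not stand above them.

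**Figure D1:**
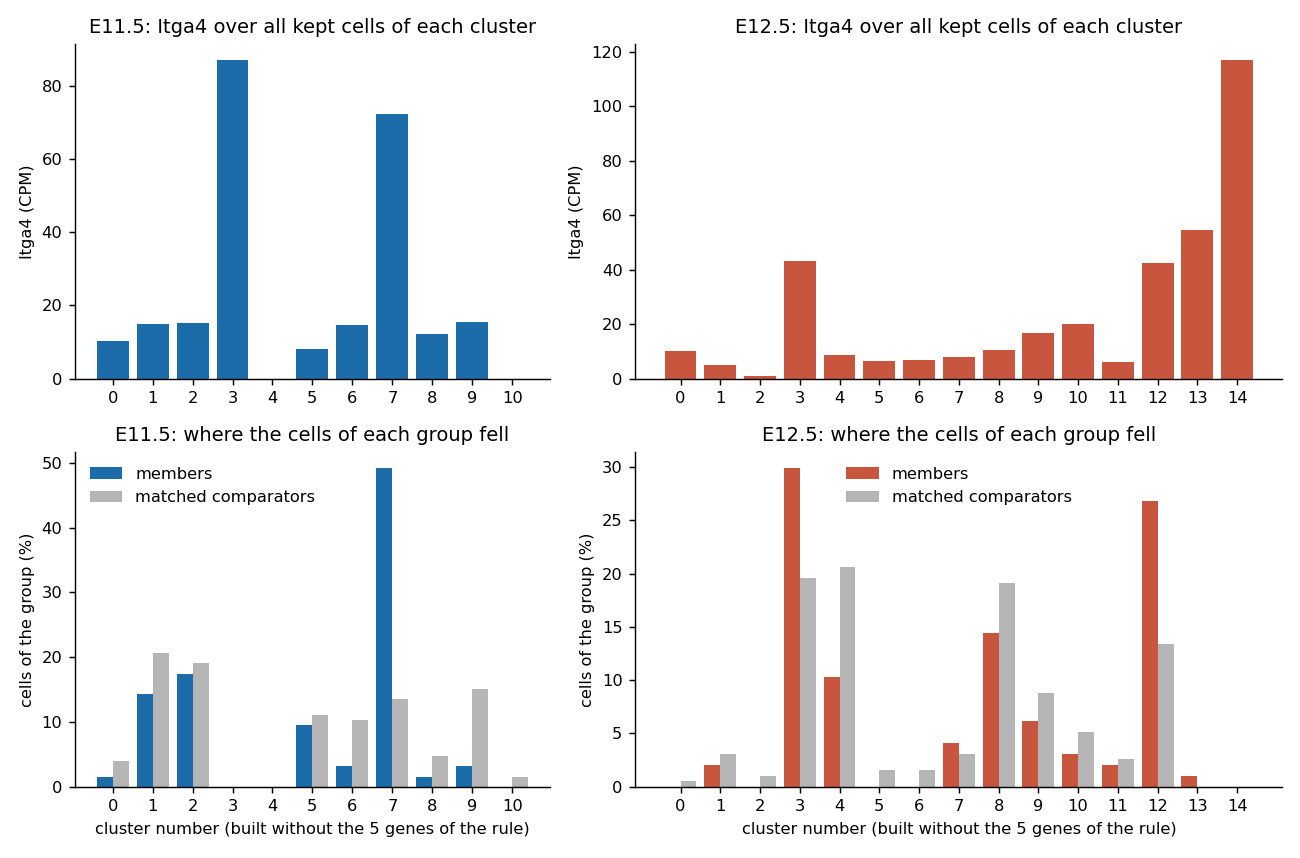
Upper panels show the level of *Itga4* (CPM) over all kept cells of each Leiden cluster at E11.5 and E12.5, and lower panels the percent of the *Itga4*-positive glia (members, colored bars) and of their depth-matched *Itga4*-negative comparators (gray bars) that fell in each cluster. The *Itga4*-positive glia exceed their comparators most in cluster 7 at E11.5 (49.2% against 13.5%) and in cluster 12 at E12.5 (26.8% against 13.4%), while the clusters with the highest *Itga4* (87.0 and 117 CPM) hold none of them.

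Each cell of the group was set against up to 2 *Sox10*-positive *Itga4*-negative cells of the same library with nearly the same total of UMIs. These were 126 cells at E11.5 and 194 in the E12.5 library. Median totals were 11480 against 11458 UMIs and 7215 against 7216.5. The comparators may hold *Sox8*, *Prss56* or *Egr2* while the group may not, so a gene that goes with those 3 is lowered in the group by the choice itself. A second, strict set of comparators that also lack the 3 genes was used beside it, and so were all *Itga4*-negative cells weighted to the depths of the group (382 and 1285 cells), which rest on more cells than the matched set.

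Of 3254 genes with at least 100 UMIs over both groups of cells in each library, 155 (4.76%) were at least 1.5-fold higher in the *Itga4*-positive cells at E11.5 and 92 (2.83%) at least 1.5-fold lower. At E12.5, 65 (2%) were higher and 74 (2.27%) lower. In both libraries 33 genes (1.01%) were past 1.5-fold higher and 19 (0.584%) past 1.5-fold lower. Against all comparators weighted to the same depths these counts were 16 (0.492%) and 7 (0.215%), of which 15 and 4 were among the 33 and the 19. The median log2 ratio over all tested genes was -0.01 at E11.5 and 0.00 at E12.5. Most tested genes thus lay within 1.5-fold between the group and *Itga4*-negative *Sox10*-positive cells of like depth. The genes named next were picked for the size of their ratio, so that their values are a description.

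*Sorcs1*, on chr19:50131737-50667093, which encodes a sorting receptor of the VPS10 family, headed the higher genes, which are ordered by their smallest fold. It stood at 138 CPM (112 to 167) in the *Itga4*-positive cells against 54.5 CPM (43.3 to 67.6) in matched cells at E11.5, 2.53-fold higher. At E12.5 it stood at 180 CPM (151 to 213) against 67.2 CPM (54.7 to 81.8), 2.68-fold higher. Neither pair of intervals overlapped, and the ratio was 2.14 and 2.46 with weighted and 2.68 and 3.35 with strict comparators. A UMI of *Sorcs1* was seen in 46.0% and 44.3% of the group against 18.3% and 26.3% of matched cells and 23.0% and 11.2% of *Sox10*-negative cells, and with every cell thinned to 2000 UMIs the 3 shares were 17.5%, 8.73% and 6.29% at E11.5 and 26.8%, 13.9% and 6.40% at E12.5. The order of the group above its matched cells held after thinning, but the thinned intervals overlapped at both stages. They were 9.05 to 29.1% against 4.44 to 15.1% at E11.5 and 18.3 to 36.8% against 9.38 to 19.6% at E12.5. After thinning the matched cells at E11.5 stood near the *Sox10*-negative ones.

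*Igfbp5* on chr1:72897091-72914043, whose product binds insulin-like growth factors outside the cell, had the largest ratio of the 12 higher genes at E11.5. It stood at 245 CPM (211 to 283) against 33.2 CPM (24.7 to 43.8), 7.37-fold higher, and 1 cell held 16.8% of its 185 UMIs. At E12.5 it was 148 CPM against 67.2 CPM, 2.20-fold higher, or 1.75-fold with weighted comparators. *Slc35f1*, of a family of solute carriers, stood at 236 against 118 CPM at E11.5 and 421 against 218 CPM at E12.5, close to a doubling in both. *Deptor*, an inhibitor that binds the mTOR kinase, stood at 76.8 against 37.9 CPM and 129 against 51.8 CPM, 2.03- and 2.49-fold higher.

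*Pard3b*, a homologue of the polarity protein PAR-3, stood at 465 against 177 CPM at E11.5 and 366 against 198 CPM at E12.5. *Sntb1*, a syntrophin of the dystrophin complex, stood at 463 against 190 CPM and 360 against 206 CPM. *Sh3pxd2a*, a scaffold of podosomes and invadopodia, stood at 109 against 49.2 CPM and 140 against 78.0 CPM. With weighted comparators *Sh3pxd2a* was 1.55- and 1.59-fold higher, *Sntb1* 2.02- and 1.61-fold and *Pard3b* 2.40- and 1.47-fold, the last under the threshold at E12.5. *Col25a1*, a transmembrane collagen, was 5.25-fold higher at E11.5 and 1.79-fold at E12.5, or 3.37- and 1.75-fold with weighted comparators. *Egfl8*, a secreted protein with EGF-like domains, was 4.06- and 1.82-fold higher (2.51- and 1.63-fold weighted), and *Prss12*, a secreted serine protease, 3.95- and 1.82-fold (3.32- and 1.61-fold weighted). All 3 had a larger ratio at E11.5 than at E12.5, a difference between libraries that was not tested.

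*Mef2c*, a MADS-box transcription factor, and *Mest*, an imprinted gene expressed from the paternal allele, complete the 12 genes highest by the smallest fold over both stages and both sets of comparators. *Mef2c* stood at 147 against 56.5 CPM and 156 against 82.7 CPM. *Mest* was the most abundant by CPM, at 1171 against 639 CPM and 1320 against 721 CPM, 1.83-fold in both libraries. With weighted comparators *Mest* at E11.5 (1.47-fold) and *Pard3b* at E12.5 (1.47-fold) fell just under 1.5-fold, and the other 10 genes stayed past it at both stages. For all 12 genes the interval of the group lay above that of the matched cells at each stage.

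The 12 genes chosen as lower rested on fewer cells, and several were neuronal. *Pou4f1* on chr14:104699112-104705504, a POU homeodomain factor of sensory neurons, stood at 97.9 against 159 CPM at E11.5 and 45.7 against 113 CPM at E12.5. *Tlx3*, a homeobox factor of sensory neurons, stood at 31.8 against 84.4 CPM and 41.7 against 70.6 CPM, and *Ebf2*, a factor of the early B-cell factor family, at 19.9 against 66.5 CPM and 36.3 against 71.9 CPM. Only 3 of 63 and 5 of 97 cells of the group held *Ebf2*. *Hes6*, a bHLH factor found in cells committed to neurogenesis, stood at 185 against 338 CPM and 110 against 179 CPM. *Cd24a*, a surface glycoprotein of immature neurons, stood at 84.7 against 145 CPM and 73.9 against 160 CPM. *Kcnmb2*, a potassium channel subunit, was 1.78- and 1.98-fold lower, but 1 cell held 65.8% of its UMIs at E11.5. *Thsd7b* was 1.63- and 2.33-fold lower, yet with weighted comparators it was 1.04-fold higher at E11.5 and 1.84-fold lower at E12.5.

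Lower genes without a neuronal role were *Mfap4*, an extracellular matrix glycoprotein, at 114 against 237 CPM and 173 against 332 CPM, and *Tom1l1*, an adaptor of endosomal sorting, at 42.4 against 84.4 CPM and 25.5 against 57.8 CPM. *Tom1l1* kept its ratio with weighted comparators, 1.99- and 2.16-fold lower. *Dbp*, a circadian transcription factor, and *Phf12*, a PHD finger protein, were between 1.61- and 2.17-fold lower at both stages. Of the lower genes given here, intervals overlapped for *Phf12* at E11.5 and for *Tlx3* and *Dbp* at E12.5. Weighted comparators left 4 of the 12 genes past 1.5-fold lower at E11.5, 10 at E12.5 and 3 (*Tlx3*, *Dbp* and *Tom1l1*) at both. With 1 comparator per cell, where 2202 genes could be tested, only *Mfap4* of the 19 stayed past 1.5-fold lower in both libraries. Without cells of 4 or more neuronal genes, where 1610 could be tested, only *Lef1* did, which is not among the 12.

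**Figure D2:**
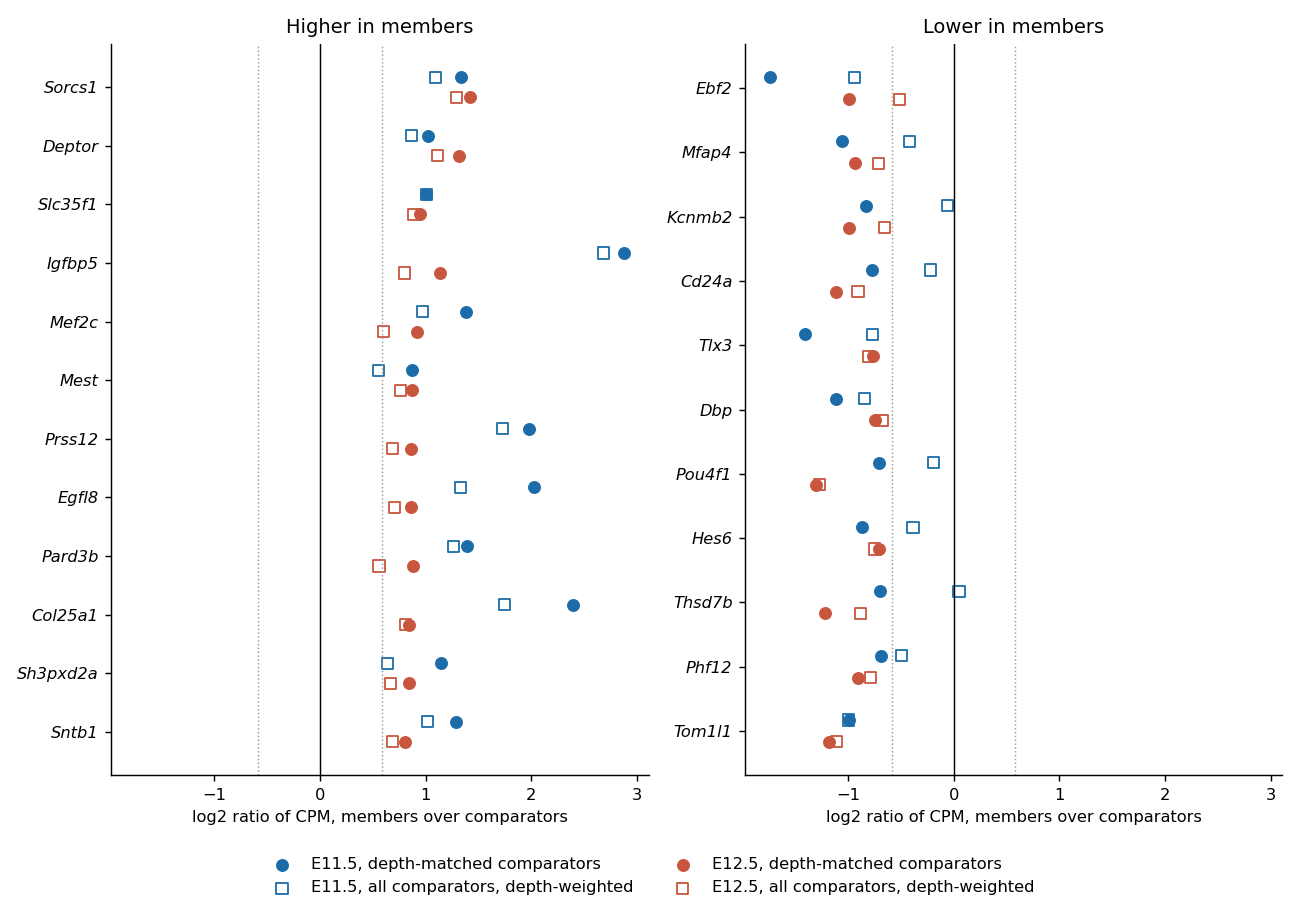
Log2 ratio of CPM (x axis) of the *Itga4*-positive glia (members) over their comparators for the 12 higher and 11 of the 12 lower genes at E11.5 and E12.5, with filled circles for depth-matched cells and open squares for all *Itga4*-negative cells weighted to the same depths (dotted lines mark 1.5-fold). All 12 higher genes lie to the right of 0 in both libraries with either set, and *Thsd7b* at E11.5 crosses 0 with the weighted set (0.05).

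Levels were also read inside and outside these clusters, against all *Itga4*-negative *Sox10*-positive cells there and with no matching on depth. Median totals of *Itga4*-positive and *Itga4*-negative cells were 11854 and 12224.5 UMIs inside and 11207.5 and 12465.5 outside at E11.5, and 6516 and 5452 inside and 8577 and 6656.5 outside in the E12.5 library. *Sorcs1*, *Egfl8*, *Col25a1* and *Sntb1* are among the leading genes of 1 or more of the clusters, so for them a gap between inside and outside is fixed by the clustering, and what is given is the comparison of *Itga4*-positive with *Itga4*-negative cells on either side. Inside cluster 7 at E11.5 the 31 *Itga4*-positive cells held *Sorcs1* at 250 CPM (202 to 305) and the 76 *Itga4*-negative *Sox10*-positive cells at 262 CPM (230 to 298), while outside it the levels were 26.4 CPM (12.7 to 48.5) in 32 cells and 13.7 CPM (10.3 to 17.9) in 322. Both pairs of intervals overlapped. Inside clusters 3 and 12 at E12.5 *Sorcs1* stood at 334 CPM (278 to 397) in 55 *Itga4*-positive cells and 200 CPM (184 to 216) in 531 *Itga4*-negative cells, which were apart, whereas outside them it was 21.8 CPM (9.43 to 43.0) in 42 cells and 24.2 CPM (20.4 to 28.5) in 822.

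Of the 12 higher genes, picked for their ratio, 6 had an interval above that of the *Itga4*-negative cells inside cluster 7 at E11.5 (*Igfbp5*, *Mest*, *Prss12*, *Pard3b*, *Col25a1* and *Sntb1*), and 8 inside clusters 3 and 12 at E12.5 (*Sorcs1*, *Deptor*, *Slc35f1*, *Igfbp5*, *Mest*, *Prss12*, *Pard3b* and *Sntb1*). For the other genes the intervals overlapped. The counts inside and outside the clusters, here and for the lower genes, describe genes picked for their ratio. No share over all tested genes is set beside them. *Igfbp5* stood at 473 CPM (406 to 547) against 66.4 CPM (50.5 to 85.6) inside cluster 7, and at 241 (194 to 296) against 157 CPM (143 to 171) inside clusters 3 and 12. *Sh3pxd2a* stood at 162 CPM in both groups of cells inside cluster 7, and *Egfl8* at 329 (274 to 393) against 303 CPM (268 to 341). Outside the clusters 9 of the 12 genes overlapped at E11.5 and 11 at E12.5. *Slc35f1* was the exception at both stages, at 135 (100 to 177) against 82.6 CPM (73.8 to 92.2) and 229 (183 to 284) against 163 CPM (153 to 173). *Egfl8* was also higher outside cluster 7, at 81.8 (55.6 to 116) against 28.5 CPM (23.4 to 34.3), and *Mest* was lower there, at 496 (428 to 572) against 647 CPM (622 to 673).

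Of the 12 lower genes only *Tom1l1* had an interval below that of the *Itga4*-negative cells inside the clusters, at 23.9 (10.9 to 45.4) against 60.7 CPM (45.6 to 79.3) in cluster 7 and 23.8 (10.9 to 45.3) against 58.8 CPM (50.6 to 68.0) in clusters 3 and 12. Outside them *Tom1l1* overlapped at both stages, at 60.7 (38.5 to 91.1) against 89.6 CPM (80.4 to 99.5) and 27.3 (13.1 to 50.2) against 53.6 CPM (47.9 to 59.9). *Pou4f1* stood at 7.97 CPM in *Itga4*-positive and 5.62 CPM in *Itga4*-negative cells of cluster 7, and at 2.65 against 7.75 CPM in clusters 3 and 12. *Hes6* gave 14 UMIs in 31 against 32 in 76 cells of cluster 7, and 9 in 55 against 88 in 531 cells of clusters 3 and 12. *Cd24a* stood at 39.8 against 23.6 CPM and 23.8 against 29.4 CPM, so neither gene was absent there. Outside the clusters none of the lower genes was below its comparators at E11.5, where *Thsd7b* was above them, and 4 were below at E12.5 (*Mfap4*, *Cd24a*, *Pou4f1* and *Thsd7b*), among them *Pou4f1* at 90.1 (62.0 to 127) against 160 CPM (150 to 171).

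**Figure D3:**
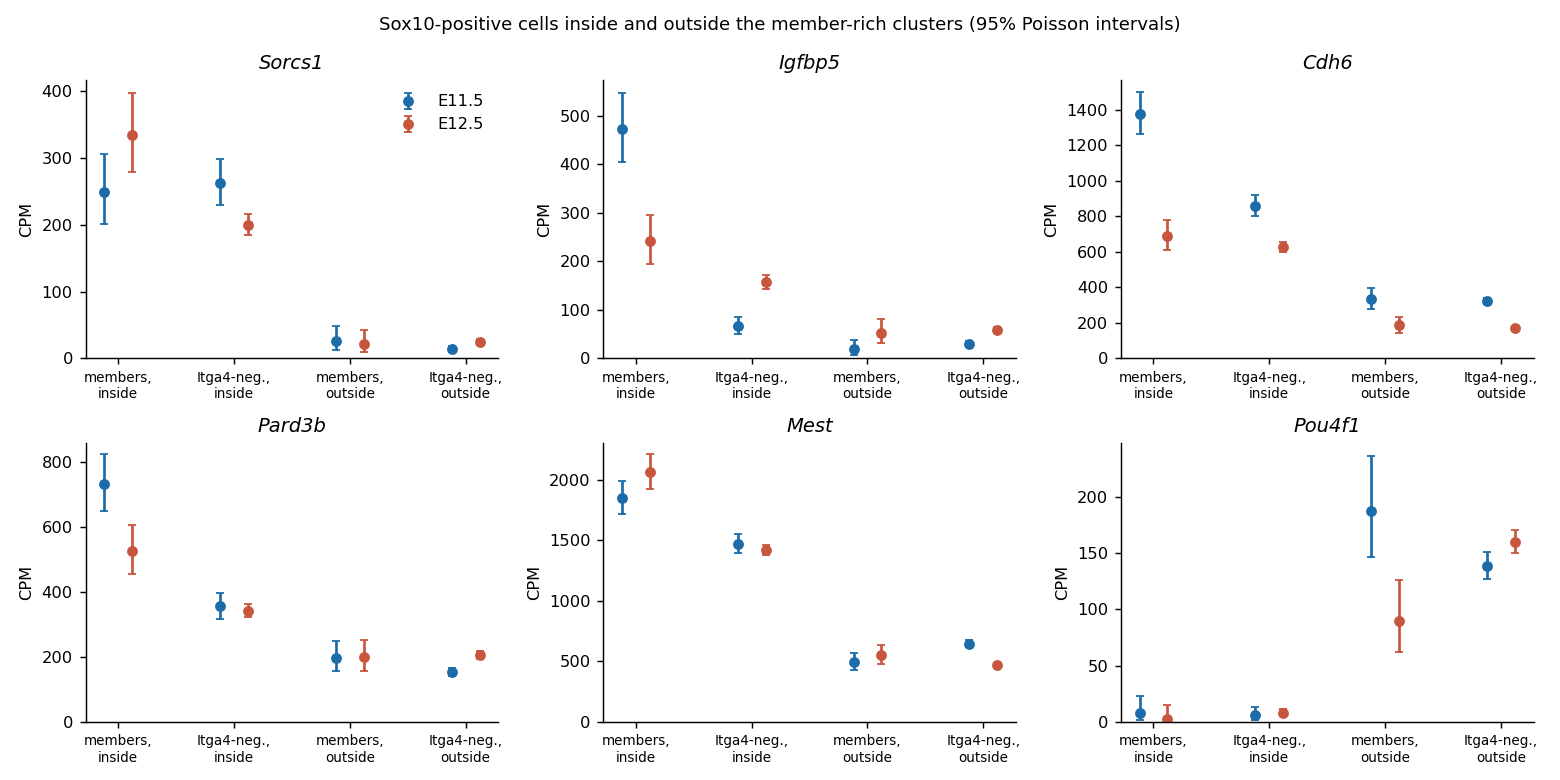
Level in CPM (points with exact 95% Poisson intervals, y axes from 0) of 6 genes in *Itga4*-positive glia (members) and *Itga4*-negative *Sox10*-positive cells, inside and outside cluster 7 at E11.5 and clusters 3 and 12 at E12.5. *Igfbp5* separates *Itga4*-positive from *Itga4*-negative cells inside cluster 7 (473 against 66.4 CPM), while *Sorcs1*, a leading gene of cluster 7, does not (250 against 262 CPM).

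Genes of the integrin family were read next, from lists drawn up with earlier results of these data known. Of the 19 integrin subunits listed, 2 passed the floor of 100 UMIs besides *Itga4* itself. *Itga6*, the laminin receptor subunit of Schwann cells and of their precursors, stood at 150 CPM (123 to 180) against 95.7 CPM (80.7 to 113) at E11.5 and 239 CPM (206 to 277) against 151 CPM (131 to 172) at E12.5, 1.56- and 1.59-fold higher. With weighted comparators its ratio was 1.26 and 1.41. *Itgb1*, the partner of integrin alpha 4, stood at 212 CPM (180 to 247) against 179 CPM (159 to 202) and 259 CPM (224 to 299) against 201 CPM (179 to 225), and the intervals overlapped at both stages. *Itgb8* was sparse, with 26 UMIs in either group of cells at E11.5 and 36 against 42 at E12.5, over about a doubled total in the matched cells. Summed over the listed subunits other than *Itga4*, levels were 488 CPM (440 to 541) against 397 CPM (366 to 430) and 725 CPM (665 to 789) against 502 CPM (467 to 540).

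The ligands of integrin alpha 4 were hardly made by these cells. None of the 7 listed passed the floor, and their sum was 56.9 CPM (41.2 to 76.7) against 81.1 CPM (67.3 to 96.8) at E11.5 and 55.1 against 60.5 CPM at E12.5. *Fn1*, encoding fibronectin, gave 16 UMIs in the group at E11.5 and 10 at E12.5. *Vcam1* gave 0 and 4 UMIs, and the interval of a count of 0 over all 63 cells still reaches 4.88 CPM. Of the other ligands, *Spp1* was at 0 at both stages, *Tnc* at 0 at E11.5 and *Madcam1* at 0 at E12.5.

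Of the cadherins, which join cells to each other, all 3 that could be read were past 1.5-fold higher at E11.5 and 1 at E12.5. Over all tested genes 4.76% and 2% were. The cadherins had median log2 ratios of 0.89 and 0.58 against -0.01 and 0.00 for all genes. With weighted comparators 1 cadherin was past 1.5-fold at E11.5 (3.63% over all genes) and 0 at E12.5 (0.922%), with medians of 0.58 and 0.44. *Cdh6* on chr15:13028787-13174004, a cadherin of neural crest and early glia, stood at 854 CPM (789 to 922) against 334 CPM (305 to 364) at E11.5 and 442 CPM (396 to 493) against 272 CPM (246 to 299) at E12.5. Its ratio was 2.56 and 1.63, or 2.0 and 1.45 with weighted comparators. *Cdh2*, N-cadherin, was 1.53-fold higher at E11.5 and 1.49-fold at E12.5. *Cdh10* was too sparse for the floor but gave 27 UMIs against 14 and 30 against 13, in about 1 cell of the group for every 2 matched cells. *Cdh19*, a cadherin of Schwann cell precursors, was 1.85-fold higher at E11.5 (1.39-fold weighted) and 1.07-fold lower at E12.5. Inside cluster 7 *Cdh6* stood at 1378 CPM (1262 to 1502) in *Itga4*-positive and 859 CPM (799 to 923) in *Itga4*-negative cells, and inside clusters 3 and 12 at 691 and 627 CPM.

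Of 11 collagens and matrix genes read, 3 were past 1.5-fold higher and 1 lower at E11.5, and 2 higher and none lower at E12.5, with a median log2 ratio of 0.32 at both stages. Over all tested genes 4.76% were higher and 2.83% lower at E11.5 and 2% were higher at E12.5. With weighted comparators 1 was higher and 1 lower at E11.5 (3.63% and 2.0% over all genes) and none at E12.5, with medians of 0.12 and 0.21. *Col5a2* and *Col18a1* were past 1.5-fold in both libraries, at 62.2 against 37.2 CPM and 83.4 against 51.1 CPM for the first, and at 162 against 105 CPM and 218 against 138 CPM for the second. With weighted comparators both were under 1.5-fold at both stages, between 1.26 and 1.34. Laminins had medians of 0.41 and 0.27 over 3 genes, led by *Lama4*, which was 1.97-fold higher at E11.5 and 1.23-fold at E12.5. Genes of focal adhesions and integrin signalling, 12 of which were read, had medians of 0.25 and 0.07 with 1 gene past 1.5-fold at E11.5 and 0 at E12.5. Adhesion molecules of the immunoglobulin family had medians of 0.03 and -0.03 over 4 genes, and *Alcam* among them was 1.49- and 1.96-fold higher. The medians of this family were 0.27 and 0.16 with weighted comparators and 0.44 and 0.50 with strict ones.

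Genes of Schwann cell precursors were read next. Of 8 genes of this list, 4 were past 1.5-fold higher at E11.5 (4.76% over all genes) and 0 at E12.5 (2%), none was lower, and the medians were 0.51 and 0.07. With weighted comparators 2 were past 1.5-fold at E11.5 (3.63% over all genes) and the medians were 0.39 and 0.05. Summed over the list without *Sox10*, levels were 1829 CPM (1734 to 1928) against 1247 CPM (1191 to 1305) and 2490 CPM (2378 to 2606) against 2202 CPM (2128 to 2279), with intervals apart at both stages. *Moxd1*, a neural crest monooxygenase-like gene, was 2.35- and 1.31-fold higher. A sparser gene of the list, *Ngfr*, the low-affinity neurotrophin receptor, on chr11:95459638-95478561, stood further apart at E11.5. It gave 103 CPM (81.6 to 129) against 11.3 CPM (6.58 to 18.1) at E11.5, and 65.9 CPM (48.7 to 87.1) against 36.3 CPM (27.3 to 47.4) at E12.5. The matched cells at E11.5 happened to hold little *Ngfr*, and with weighted comparators the fold was 4.28 in place of 9.14 there and 1.69 at E12.5.

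Satellite glia and ganglion progenitor genes were mixed. Of 6 read, 3 were past 1.5-fold higher and 1 lower at E11.5 and none at E12.5, with medians of 0.53 and 0.19. Over all tested genes 4.76% were higher and 2.83% lower at E11.5, and 2% and 2.27% at E12.5. *Ednrb*, the endothelin receptor of neural crest progenitors, stood at 531 CPM (480 to 585) against 312 CPM (284 to 341) and 904 CPM (836 to 974) against 704 CPM (662 to 748). *Ptprz1* and *Slc1a3* were 2.64- and 2.80-fold higher at E11.5 but 1.24-fold higher and 1.10-fold lower at E12.5. *Fabp7*, a fatty acid binding protein of glial progenitors and the most abundant by CPM of this list, went the other way, at 1043 CPM (971 to 1118) against 1640 CPM (1576 to 1706) and 3070 CPM (2945 to 3198) against 3597 CPM (3502 to 3695). *Gfra3*, a receptor for artemin that is also a marker of early Schwann cells, was too sparse for the floor in 1 library and was 7.64- and 2.13-fold higher, or 3.44- and 2.24-fold with weighted comparators.

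Boundary cap genes other than those of the rule gave no common direction. *Hey2*, a Notch-responsive repressor, stood at 35.7 against 73.1 CPM at E11.5 and 125 against 109 CPM at E12.5. *Ntn5*, a netrin of the boundary cap, stood at 5.29 CPM (1.44 to 13.6) against 18.6 CPM (12.4 to 26.9) and 43.0 CPM (29.4 to 60.7) against 29.6 CPM (21.5 to 39.7), with overlap at E12.5. *Npr3*, a natriuretic peptide receptor, had 78 and 156 UMIs in the group and was the most abundant by CPM of the list. Summed over the 7 listed genes besides *Prss56* and *Egr2*, levels were 206 CPM (175 to 242) against 267 CPM (242 to 295) and 468 CPM (420 to 520) against 441 CPM (408 to 476). Since cells with *Prss56* or *Egr2* were left out of the group and not out of its comparators, the choice itself can lower these sums, and in strict comparators they were 234 CPM (210 to 260) and 395 CPM (364 to 428).

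Transcription factors of the neural crest had medians of 0.21 and 0.15 over 8 genes, of which 6 and 5 had a ratio above 1. Summed over the 19 listed, levels were 2578 CPM (2465 to 2695) against 2253 CPM (2178 to 2330) at E11.5. At E12.5 they were 2842 CPM (2722 to 2966) against 2530 CPM (2450 to 2612), and the intervals were apart at both stages. *Id2*, an inhibitor of bHLH factors, was 1.78-fold higher at E11.5 (1.53-fold with weighted comparators). *Pax3*, a paired-box factor of early neural crest, was 1.73-fold lower at E11.5 (1.49-fold with weighted comparators), and *Tfap2b* and *Mycn* were 1.62- and 1.72-fold lower at E12.5. With weighted comparators 2 of the 8 were past 1.5-fold higher and none lower at E11.5 (3.63% and 2.0% over all genes). None was higher and 2 were lower at E12.5 with the same comparators (0.922% and 1.57% over all genes). Notch pathway genes had medians of -0.14 and -0.02 over 6, with *Hes6* lower in both libraries against matched cells (1.31-fold at E11.5 with weighted comparators). Semaphorins and their receptors had medians of 0.13 and 0.24 over 3 genes. Of the neuregulin and ErbB list only 2 genes could be read, and their *Erbb3*, the neuregulin receptor of glia, stood at 87.4 against 96.4 CPM and 120 against 94.1 CPM with overlapping intervals. In the list of chemokine and endothelin receptors *Ednrb* alone passed the floor.

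S phase genes had medians of -0.28 and -0.15 over 14 genes, with 0 past 1.5-fold at E11.5 and 1, lower, at E12.5. The shares over all tested genes were 4.76% higher and 2.83% lower in the E11.5 library, against 2% and 2.27% in the E12.5 library. With weighted comparators the medians were -0.33 and -0.16. Past 1.5-fold lower with them were 2 of the 14 genes in the E11.5 library (2.0% over all genes) and 0 in the E12.5 library (1.57%). With strict comparators the medians were -0.12 and 0.003. Sums over the S phase list were 1549 CPM (1461 to 1640) against 1863 CPM (1795 to 1934) at E11.5, with intervals apart, and 1412 CPM (1328 to 1500) against 1485 CPM (1424 to 1548) at E12.5. The 17 genes of G2 and M phase had medians of -0.05 and 0.22, and their sums were 2746 CPM (2629 to 2867) against 2999 CPM (2912 to 3088) at E11.5 and 3348 CPM (3218 to 3482) against 2826 CPM (2741 to 2912) at E12.5. *Top2a* was lower at E11.5 (266 against 337 CPM) and higher at E12.5 (338 against 231 CPM), and *Mki67* stood at 75.4 against 67.1 CPM and 69.9 against 61.2 CPM. Against strict comparators the G2 and M phase sum at E11.5 overlapped (2903 CPM, 2817 to 2991), while at E12.5 it stayed apart (2815 CPM, 2731 to 2902). Genes of the immediate early and heat shock response, which read handling of the tissue, had medians of 0.34 and 0.23 over 4 genes, with summed levels of 788 against 595 CPM and 1012 against 920 CPM. Genes of hypoxia and glycolysis had medians of 0.41 and 0.27 over 4. Their part in the other ratios was not tested.

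**Figure D4:**
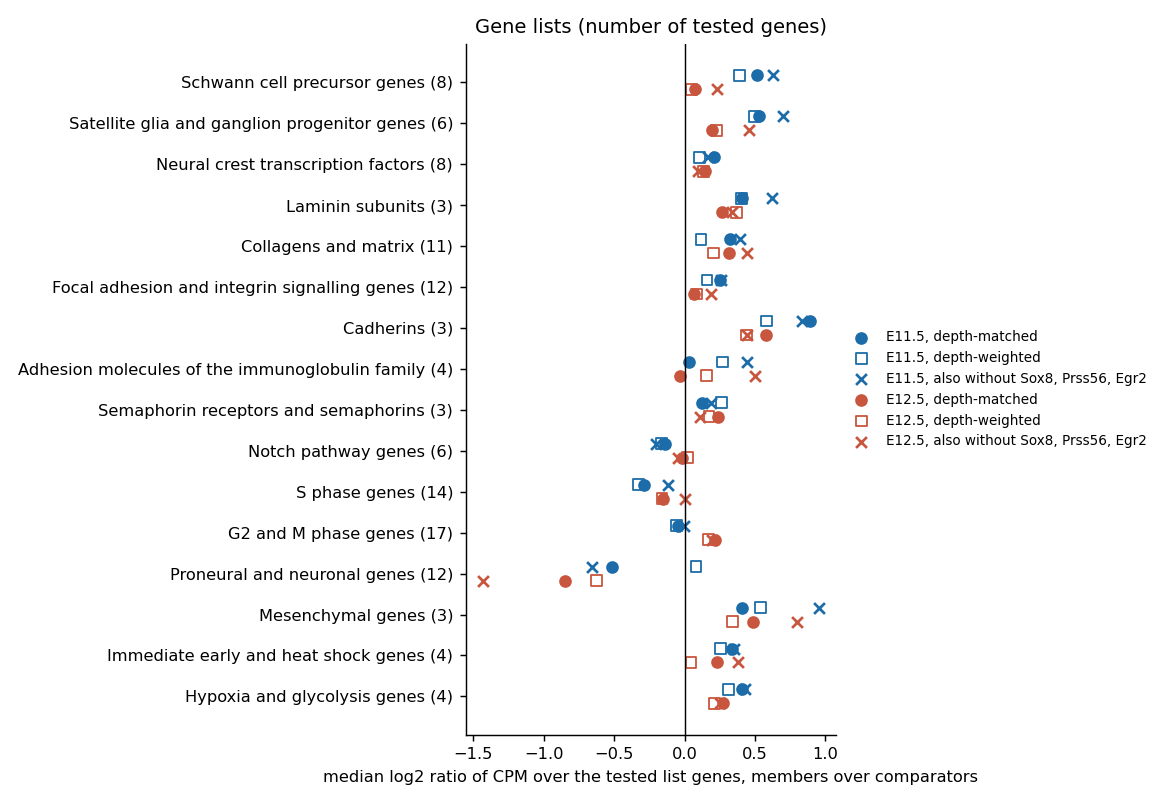
Median log2 ratio of CPM (x axis) of the *Itga4*-positive glia (members) over depth-matched (circles), depth-weighted (squares) and strict comparators (crosses, also without *Sox8*, *Prss56* and *Egr2*), for each list with 3 or more genes read, their number in brackets. Against depth-matched cells cadherins are highest (0.89 and 0.58) and neuronal genes lowest (-0.52 and -0.85) at both stages, though the neuronal median at E11.5 is 0.08 with weighted comparators.

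Neuronal genes were lower in the group than in matched cells. Of 12 read, 5 were past 1.5-fold lower and 2 higher at E11.5, and 8 lower and none higher at E12.5, with medians of -0.52 and -0.85. Over all tested genes 2.83% were lower and 4.76% higher at E11.5, and 2.27% lower at E12.5. *Pou4f1*, *Tlx3* and *Elavl3* were lower in both libraries. The summed level of the 22 listed genes was 1563 CPM (1475 to 1655) against 2081 CPM (2009 to 2155) at E11.5 and 1413 CPM (1329 to 1501) against 2443 CPM (2364 to 2524) at E12.5, *Tubb3* was the most abundant by UMIs, and no listed gene was at 0. At E11.5 this rested on which comparators were drawn, since with weighted comparators 3 were higher and 1 lower (3.63% and 2.0% over all genes) and the median was 0.08, against -0.62 at E12.5, and with strict comparators -0.66 and -1.44. Cells with at least 4 neuronal genes made up 47.6% of the group, 59.5% of the matched cells and 52.3% of all *Itga4*-negative cells at E11.5, and 26.8%, 42.3% and 32.7% at E12.5. A single cell of the group at E11.5 held 457 of its 1181 neuronal UMIs. *Gap43* is on this list and on that of Schwann cell precursor genes. *Tubb3* at E11.5 stood at 379 CPM in the group, 510 CPM in matched cells and 343 CPM with weighting, and at E12.5 at 367, 704 and 563 CPM.

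Markers of the other cell types that such a sort could hold were counted over their whole lists. Of 11 pericyte genes, 7 were at 0 in the group at E11.5, among them *Pdgfrb*, *Rgs5* and *Abcc9*, and the sum of 123 CPM (99.4 to 151) against 86.4 CPM came mostly from *Mcam*, with 57 of 93 UMIs. *Mcam* is a gene of Schwann cell precursors as well. At E12.5 the pericyte sum was 186 CPM (156 to 219) against 118 CPM, *Mcam* gave 60 of 138 UMIs, *Cspg4* and *Higd1b* were at 0, and 1 cell held 36 UMIs of 8 of the genes. Of 15 mesenchymal genes, 6 were at 0 at E11.5 and 7 at E12.5, with sums of 384 CPM (341 to 431) against 219 CPM and 608 CPM (553 to 666) against 516 CPM. *Col1a2*, which glia of these libraries also held, gave 129 of 290 and 205 of 452 UMIs, while *Prrx1*, *Twist2*, *Foxc2*, *Tbx18* and *Osr1* were at 0 at both stages.

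Endothelial genes summed to 37.1 against 23.3 CPM and 41.7 against 16.8 CPM, with *Egfl7* the most abundant by UMIs and *Cdh5*, *Kdr*, *Tie1*, *Cldn5* and *Flt1* at 0 at both stages. Myeloid genes gave 2 UMIs at E11.5, with 9 of 11 genes at 0, and 47 UMIs at E12.5 (63.2 against 7.39 CPM), with *Aif1*, *Laptm5* and *Ptprc* at 0 and *Fcer1g* leading with 12 UMIs. Of those 47 UMIs, 42 came from the 1 cell in the cluster led by *C1qb* and *Pf4*. Erythroid genes summed to 19.9 against 45.9 CPM and 5.38 against 12.1 CPM, led by *Hbb-y* with 6 of 9 genes at 0. Melanoblast genes summed to 13.2 against 19.3 CPM and 30.9 against 24.9 CPM, led by *Kit*, with *Tyrp1*, *Tyr* and *Mlana* at 0. Muscle genes gave 2 UMIs at each stage, and the 7 genes of central nervous system progenitors gave no UMI at E11.5 and 1 UMI at E12.5. The part of pericyte, mesenchymal and endothelial RNA in the other ratios was not tested. Doublet scores of 0.2 or more were found in 1 cell of the group at E11.5 and 5 in the E12.5 library, and these cells were kept.

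The group was also set beside the *Sox10*-positive cells defined by the other genes of the rule. *Itga4* stood at 37.0 CPM in the 35 cells with *Sox8* and neither *Prss56* nor *Egr2*, 25.9 CPM in the 127 with *Prss56* and 37.4 CPM in the 66 with *Egr2* and no *Prss56* at E11.5. At E12.5 it stood at 18.5, 28.5 and 35.2 CPM in 72, 429 and 109 cells. Of the 12 higher genes, 12 stood highest in the *Itga4*-positive group at E11.5 and 7 in the E12.5 library. Only 4 (*Slc35f1*, *Igfbp5*, *Pard3b* and *Sntb1*) and 1 (*Slc35f1*) had intervals above all 3 classes. These genes were picked for a high ratio over comparators that could include cells of the 3 classes, so the counts are a description. They are given without a share over all tested genes. Depths were not matched, with median totals of 13480, 13801 and 13563.5 UMIs against 11480 in the group at E11.5. At E12.5 they were 6154, 6113 and 6703 against 7215. *Sorcs1* stood at 138 CPM against 86.2, 58.6 and 104 CPM at E11.5 and 180 CPM against 134, 118 and 157 CPM at E12.5, and its intervals overlapped those of the *Sox8* and *Egr2* classes at both stages. *Igfbp5* stood at 245 CPM against 107, 31.6 and 48.4 CPM at E11.5 and at 148 CPM (122 to 178) against 132 (101 to 168), 93.8 and 101 CPM at E12.5. *Egfl8* at E12.5 was higher in the cells with *Sox8* and neither *Prss56* nor *Egr2*, at 572 CPM (507 to 644) against 399 CPM (355 to 447) in the group. *Fabp7* was lowest in the group at E11.5, at 1043 CPM against 1597, 1792 and 1589 CPM, and highest at E12.5, at 3070 CPM against 2679, 2533 and 2471 CPM. *Pou4f1* at E11.5 was highest in the group, at 97.9 CPM against 63.6, 22.5 and 35.2 CPM.

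The *Itga4*- and *Sox10*-positive cells that the rule left out were set against their own comparators, *Itga4*-negative cells of like depth that also held *Sox8*, *Prss56* or *Egr2* (118 and 196 cells). Some of these comparators also served the group, so the values stand side by side and their likeness is not read as support. *Sorcs1* stood at 81.7 CPM (64.8 to 102) against 68.6 CPM (57.0 to 81.7) in the left-out cells at E11.5, 1.19-fold higher, and at 167 CPM (140 to 197) against 88.7 CPM (74.9 to 104) at E12.5, 1.88-fold higher. In the group, against strict comparators, it was 2.68- and 3.35-fold higher. *Igfbp5* was 1.49- and 1.52-fold higher in the left-out cells against 7.33- and 1.90-fold in the group, and *Pard3b* 1.14- and 1.03-fold against 2.75- and 1.81-fold. *Egfl8* was 1.83- and 1.40-fold higher against 3.66- and 2.19-fold. These ratios were smaller in the left-out cells for each of the 4 genes at both stages, in genes that had been picked for a large ratio in the group. All 12 higher genes had a ratio above 1 in the left-out cells at both stages, with medians of 1.36- and 1.34-fold, and 3 and 2 were past 1.5-fold higher there, against 0.983% and 0.584% of all tested genes. Of the 12 lower genes, 7 had a ratio below 1 in the left-out cells at E11.5 and 11 in the E12.5 library, with medians of 1.12- and 1.65-fold lower. Past 1.5-fold lower there were 4 and 7 of the 12, against 2.09% and 2.12% of all tested genes. *Pou4f1* was 2.67- and 3.15-fold lower there, whereas *Kcnmb2* was 2.53-fold higher at E11.5 and 1.70-fold lower at E12.5. Of the left-out cells, 33 of 61 (54.1%) lay in cluster 7 at E11.5 and 77 of 98 (78.6%) in clusters 3 and 12 at E12.5.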

How the data were processed

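The authors sorted Tomato-positive cells and made 1 library per stage from the *Egr2*-Cre line with the 10x Genomics 3′ V2 kit, and a further dataset of the study, from *Prss56*-Cre embryos, is not analysed here. Per the labels, reads were counted with Cell Ranger 7.0 on mm39 (the matrix header gives 7.0.1), and the deposited values are raw UMI counts per gene and barcode for 33207 genes. Coordinates are those of GENCODE M39, matched by gene identifier.

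Barcodes with at most 10% mitochondrial UMIs and at least 2000 (E11.5) or 1000 (E12.5) UMIs were kept, which left 840 of 1431 and 3563 of 3762. Doublets were not removed. The cells described and all gene lists (28) were chosen with earlier results of these data known. Comparators were matched without replacement within 0.1 in log10 total UMIs, or weighted over 5 depth bins. UMIs were summed over cells, with no count model and no p value, since each stage is 1 library. Genes were tested for size at 1.5-fold when they held 100 UMIs over both groups of cells in each library. Named genes were the 5 of the rule, the defining genes of the lists and those past 1.5-fold in both libraries, and the 12 higher and 12 lower with the largest smallest fold over both stages and both sets of comparators, without mitochondrial, ribosomal protein, Xist and Y-linked genes. A few genes are not reported here. Leiden clusters (resolution 1) used 3000 variable genes without those of the rule, 30 components and 15 neighbours. Shares were thinned to 2000 UMIs. Python 3.11.15, numpy 2.4.6, scipy 1.17.1, pandas 2.3.3, scanpy 1.11.5, python-igraph 0.11.9 and matplotlib 3.10.9 were used. The code for the ratios was run on simulated cells with planted changes larger than 1.5-fold. Cells of each simulated group shared 1 profile, without the differences between cells of the data. That run checks the code and not the genes named here. In all, 14 alternatives were planned and 4 were added after the data were seen.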

Additional observations from a re-analysis of the deposited data

Results flagged for a closer look

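*Stmn2* and *Nefm*, both of neurons, went in opposite directions at the 2 stages. The log2 ratio of the *Itga4*-positive glia over matched cells was 1.21 at E11.5 and -1.09 at E12.5 for *Stmn2*, and 0.88 and -0.62 for *Nefm*. At E11.5, 64 UMIs of *Stmn2* lay in 9 cells, and 1 cell held 45 of them (70.3%), and 73 UMIs of *Nefm* lay in 12 cells, with 45 (61.6%) in 1 cell. The difference between the stages was not tested. Among barcodes that the filters removed at E11.5, 11 of 591 held both *Itga4* and *Sox10*, and at E12.5 there was 1 of 199. They entered no comparison.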

How the results depend on the processing

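The number of genes past 1.5-fold in both libraries depended on the comparators and on the floor. The higher genes, 33 in the report, numbered 56 with strict comparators, 10 without matching on depth, 16 with weighted and 60 with weighted strict comparators, 19 with at least 2 *Itga4* UMIs per cell, 18 without cells of 4 or more neuronal genes, 70 at a floor of 50 UMIs, 14 at 200 UMIs and 3 at 2-fold. The lower genes, 19 in the report, numbered 30, 8, 7 and 24 with the same comparators, 4 with 1 comparator per cell, 11, 7, 47, 8 and 0 under the other settings in that order, and 8 without cells holding rarer genes of other types. Shared with the genes of the report were 28 higher and 15 lower with strict comparators, 10 and 4 without matching, 21 and 1 with 1 comparator per cell, 7 and 0 with at least 2 *Itga4* UMIs, 14 and 1 without cells of 4 or more neuronal genes, 18 and 5 without cells of rarer genes of other types, and 31 and 12 without likely doublets. Leaving out every cell with 2 genes of another type, as planned, left 6 and 10 cells, 167 tested genes, 0 higher and 1 lower. Requiring 2 UMIs of *Itga4* left 19 and 18 cells, in which 622 genes could be tested. At E11.5 the log2 ratio turned for *Thsd7b* (0.023 without matching, 0.067 with 1 comparator, 0.050 weighted), *Cd24a* (0.066 with 1 comparator) and *Mest* (-0.029 without cells of other types as planned). Over the named genes, 362 ratios under an alternative stayed within their counting interval, 81 moved out of it and 5 turned, and of medians of lists 222 stayed and 16 moved, as did 8 shares of cells without thinning. Causes were not tested, except that fewer cells leave fewer genes above the floor. The 4 settings added after the data were seen are the weighted, the weighted strict, the rarer genes of other types and the neuronal one. No paired analysis was possible because each stage is 1 library.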
